A study of Mus musculus with 6 samples.

Results

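The NF-kB and TNF response was followed through 12 mouse tumours in 10 genes, namely Tnf, Nfkb1, Nfkb2, Relb, Nfkbia, Nfkbiz, Tnfaip3, Birc3, Icam1 and Sod2. They were chosen by name from the 18848 genes of the deposited expression table, and all 10 were measured in its 5749 annotated cells. The tumours were grown from PPS-ICBR, a prostate cancer line that resists immune checkpoint blockade (ICB), in C57Bl6 mice. They were profiled by droplet single-cell RNA sequencing, in which each molecule is counted by its unique molecular identifier (UMI). The study asked whether a diet that raises ketone bodies changes resistance to immunotherapy.

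The groups held 3 tumours each. BD+ICB mice ate the butanediol diet and received the blockade, listed as 0.2 mg against PD-1 and CTLA-4 given "biweekly". ICB mice received the blockade and are named with the standard diet in the deposited cell table. BD mice ate the butanediol diet alone, a mash of 198 g of chow with 80 mL of 1,3-butanediol, 120 mL of water and 2 g of saccharine. SD mice ate the standard diet. All tumours came from the same line, were digested with enzymes at body heat, and were taken through a Percoll gradient from which the leukocyte layer was kept, so the cancer cells and fibroblasts are those that stayed in that layer. BD and SD tumours shared 1 library and BD+ICB and ICB tumours shared the other, so the blockade and the library cannot be told apart. Within each library the diet also went with the listed tumour size, whose unit is not stated: 23 to 90 in BD+ICB tumours against 289 to 1116 in ICB tumours, and 172 to 203 in BD tumours against 870 to 2348 in SD tumours. Diet and tumour size therefore cannot be told apart either.

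Depth differed between tumours, with 70 to 913 cells and 510984 to 13007506 UMIs per tumour and a median of 4544.5 to 10817 UMIs per cell. The deposited class names were kept. Of these, Nos2+ dendritic cells held all 10 macrophage markers and all 6 monocyte markers above 20 CPM (UMIs scaled to the total of the class) but 2 of 5 type 1 and 1 of 5 type 2 dendritic cell markers, and the proliferating cancer cells held 7 of 8 mesenchymal and 2 of 6 epithelial markers. Annotated cells of the 2 libraries shared 2 barcodes.

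Gene positions are those of RefSeq on GRCm38.p6. The ligand gene Tnf (ENSMUSG00000024401) is at chr17:35199367-35202007 and was seen in 47.6% of cells, with 14611 UMIs. The subunit genes Nfkb1, Nfkb2 and Relb are at chr3:135584655-135691969, chr19:46300994-46312400 and chr7:19606217-19629438, and were seen in 71.1%, 51.1% and 41.3% of cells. Nfkbia, Nfkbiz and Tnfaip3 are at chr12:55489409-55492647, chr16:55811375-55838954 and chr10:19000910-19015410, and were seen in 94.9%, 68.3% and 75.2% of cells. The target genes Birc3, Icam1 and Sod2 are at chr9:7847468-7873205, chr9:21015940-21028814 and chr17:13007839-13018119, and were seen in 43.9%, 44.5% and 73.8% of cells. UMIs per gene ran from 4568 for Birc3 to 106437 for Nfkbia.

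NF-kB is a family of dimeric transcription factors that inhibitor proteins hold in the cytoplasm. TNF, interleukin-1 and Toll-like receptor ligands activate a kinase complex that marks the inhibitor for destruction, and the freed dimers turn on cytokines, adhesion molecules, survival genes and the genes of their own inhibitors. The pathway is therefore known both for inflammatory output and for a built-in brake. In tumours it is studied in myeloid cells, where it drives inflammatory cytokines, and in cancer cells, where it decides between survival and death after TNF.

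The promoters are shown because the pathway acts on its own inhibitors through a short DNA element, the κB site. RefSeq (GRCm38.p6) gave a promoter for 7 of the 10 genes. The κB decamer consensus was searched on both strands, overlapping matches included, in windows of 250 bases before to 50 bases after each start. It was found in 8.46% of 32851 promoters, and in the promoter of 9.55% of 27025 genes. Among the 7 genes it was found in 4, namely Nfkbia, Tnfaip3, Nfkb2 and Sod2. In the sequences below, written 5′ to 3′ on the strand of the gene, capitals mark matches to the decamer. The first 2 are the 250 bases upstream of the inhibitor genes Nfkbia (chr12:55492648-55492897, minus strand) and Tnfaip3 (chr10:19015411-19015660, minus strand), where the promoter-proximal decamer of Nfkbia began 29 bases before the start.
Nfkbia: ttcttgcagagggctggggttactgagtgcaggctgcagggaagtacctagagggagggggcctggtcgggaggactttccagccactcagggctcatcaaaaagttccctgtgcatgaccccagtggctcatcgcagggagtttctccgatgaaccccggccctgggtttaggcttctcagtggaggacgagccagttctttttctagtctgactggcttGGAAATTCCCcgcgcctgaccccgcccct
Tnfaip3: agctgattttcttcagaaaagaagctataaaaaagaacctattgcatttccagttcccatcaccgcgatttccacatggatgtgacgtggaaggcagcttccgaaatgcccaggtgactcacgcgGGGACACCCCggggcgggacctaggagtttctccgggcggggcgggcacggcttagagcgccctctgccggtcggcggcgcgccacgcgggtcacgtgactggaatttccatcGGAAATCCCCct
The next 3 are 30-base windows around decamers of Nfkb2 (chr19:46304688-46304717 and chr19:46305695-46305724, plus strand, from 2 of its 3 listed starts) and Sod2 (chr17:13007746-13007775, plus strand). Capitals in each window mark 1 decamer only. The first Nfkb2 window also holds an overlapping match that began 38 bases before the start and ends in a lower-case base.
Nfkb2, first start: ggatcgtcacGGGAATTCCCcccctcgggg
Nfkb2, last start: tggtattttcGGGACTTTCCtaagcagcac
Sod2: cggggcggacGGGGTTCCCCgaggcggggc
The windows of Tnf, Birc3 and Icam1 did not hold these letters, which says nothing about sites elsewhere. A match is a description of the sequence and not a measured binding site.

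Levels are given as CPM, the UMIs of a gene scaled to the UMIs of all genes of that class in that tumour (counts divided by their total, times 1e+06), for tumours with at least 10 cells of the class. These are set side by side for 18 classes as a description, since the classes were made from the same cells. Neutrophils had the highest mean of 9 of the 10 genes. Tnf, the ligand that starts the response, averaged 1999 ± 509 CPM in Ifit+ neutrophils (SD, n = 4 tumours), 1714 ± 1209 CPM in Cxcr2+ neutrophils (n = 11) and 925 ± 479 CPM in Hilpda+ neutrophils (n = 8). Mmp+ M2 macrophages came next with 390 ± 196 CPM (n = 12), and the step from Hilpda+ neutrophils to them was the only one of 17 neighbouring steps in the order of Tnf levels that was larger than the larger SD of the pair. The tumour ranges still overlapped in all 17 steps. Here Hilpda+ neutrophils went down to 189 CPM (SD tumour 1) and Mmp+ M2 macrophages up to 796 CPM (ICB tumour 2). The lowest means were 21.2 ± 20.7 CPM in proliferating cancer cells (n = 7) and 19.7 ± 23.3 CPM in NK cells (n = 6). The spread among Cxcr2+ neutrophils was wide, between 511 CPM in SD tumour 1 and 4465 CPM in BD tumour 2.

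The subunit genes were spread more evenly. Nfkb1, which encodes the p105 precursor of p50, was the 1 gene not led by neutrophils over all tumours. It averaged 489 ± 119 CPM in CD4 T cells (n = 6) and 191 ± 115 CPM in Hilpda+ neutrophils (n = 8), the lowest of the 18 classes. The CD4 T cell tumours all had blockade, whereas Hilpda+ neutrophils also came from tumours without it. CD4 T cells led in no single group. In BD+ICB tumours Ifit+ neutrophils led (596 CPM, n = 1, against 549 CPM in CD4 T cells). Nos2+ dendritic cells led in ICB tumours (482 CPM, n = 2, against 428 CPM) and in BD tumours (436 CPM, n = 1). Other dendritic cells led in SD tumours (253 CPM, n = 2). Nfkb2, which encodes the p100 precursor of p52, ranged from 196 ± 53.1 CPM in Cxcr2+ neutrophils (n = 11) to 59.8 ± 13.8 CPM in mesenchymal cells (n = 6). None of the 17 neighbouring steps of Nfkb1 or of Nfkb2 exceeded the larger SD of its pair. Relb, the partner of p52 in the alternative pathway, ranged from 159 ± 44.2 CPM in Ifit+ neutrophils (n = 4) to 41.2 ± 14.6 CPM in other macrophages (n = 8).

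Nfkbia and Nfkbiz set neutrophils apart from the other classes. Nfkbia, which encodes IκBα, the inhibitor that holds dimers in the cytoplasm, averaged 8694 ± 1909 CPM in Ifit+ (n = 4), 7777 ± 1700 CPM in Hilpda+ (n = 8) and 7013 ± 1632 CPM in Cxcr2+ neutrophils (n = 11). Vcan+ monocytes followed with 1700 ± 419 CPM (n = 7), and no tumour value of these monocytes reached the values of Cxcr2+ neutrophils. Nfkbiz encodes an atypical member of the inhibitor protein family, which acts in the nucleus on secondary response genes. Its means were 1847 ± 202, 1758 ± 612 and 1483 ± 442 CPM in Ifit+, Hilpda+ and Cxcr2+ neutrophils, and 429 ± 118 CPM in the next class, Nos2+ dendritic cells (n = 6). Tnfaip3, which encodes the ubiquitin-editing brake A20, was also high in lymphocytes. It averaged 1524 ± 299 CPM in Ifit+ neutrophils (n = 4) and, after the other 2 neutrophil classes, 665 ± 123 CPM in CD4 T cells (n = 6), 554 ± 114 CPM in CD8 T cells (n = 8) and 473 ± 162 CPM in NK cells (n = 6), above every macrophage class, whose means ran from 126 to 257 CPM.

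Of the target genes, Birc3, which encodes the ubiquitin ligase and survival factor cIAP2, had means between 310 ± 59.3 CPM in Ifit+ neutrophils (n = 4) and 14.2 ± 2.63 CPM in proliferating cancer cells (n = 7). Icam1, an adhesion molecule that binds leukocyte integrins, lay between 847 ± 308 CPM (n = 4) and 13.0 ± 3.82 CPM (n = 7) in the same classes. For both genes the cancer cells lay below the mesenchymal cells, the next class up, with no overlap between tumours. Sod2, which encodes the mitochondrial superoxide dismutase, fell off less steeply: its mean was 1044 ± 324 CPM in Ifit+ neutrophils (n = 4), 768 ± 118 CPM in Nos2+ dendritic cells (n = 6), 702 ± 85.2 CPM in Vcan+ monocytes (n = 7) and 91.5 ± 19.6 CPM in CD8 T cells (n = 8). For all 10 genes the highest class was the same by the median over tumours and in cells with at least 1000 UMIs. The 4 tumours with enough Ifit+ neutrophils all came from the library with blockade (1 BD+ICB and 3 ICB tumours), whereas the other neutrophil classes were averaged over both libraries. Within the 3 ICB tumours alone, Hilpda+ neutrophils had the higher mean of Sod2 (1219 CPM, against 1194 CPM in Ifit+ neutrophils), of Nfkbiz (2253 against 1832 CPM), of Nfkbia (9449 against 9252 CPM) and of Relb (145 against 143 CPM), and Cxcr2+ neutrophils that of Birc3 (386 against 327 CPM). Ifit+ neutrophils kept the highest mean of Tnf, Tnfaip3 and Icam1 there.

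**Figure D1:**
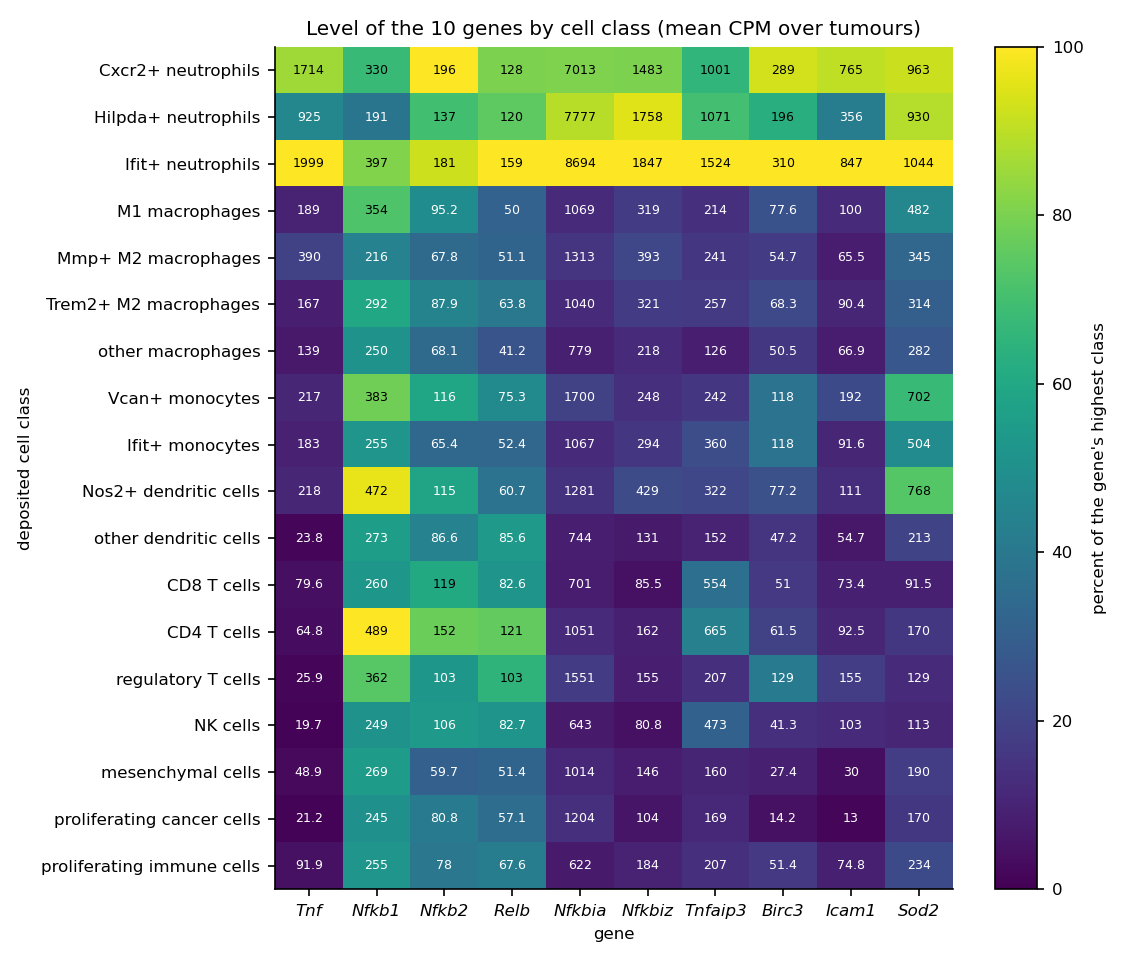
Mean CPM over tumours of each gene (columns) in each deposited class with at least 1 tumour of 10 cells (rows). Colour gives the percent of the gene's highest class and the number in each cell is the mean CPM (1 tumour for regulatory T cells and for Ifit+ monocytes). The 3 neutrophil classes hold the highest value of all genes except Nfkb1, whose highest value is 489 CPM in CD4 T cells.

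Neutrophils made up 25.3% of cells but 6.86% of all UMIs, as means over the 12 tumours, with few UMIs per cell. They nevertheless held 38.8 ± 23.9% of all Tnf UMIs, 36.0 ± 23.3% of Icam1 UMIs and 30.4 ± 19.3% of Nfkbia UMIs (SD, n = 12). Macrophages held as much of the Tnf, 39.9 ± 17.8% (n = 12), but from 38.1% of all UMIs. By group, macrophages had the larger mean share of Tnf in BD+ICB tumours (46.4 ± 10.7%) and BD tumours (48.1 ± 27.4%). Neutrophils had the larger in ICB tumours (52.9 ± 23.9%) and SD tumours (44.9 ± 20.4%, SD, n = 3 each). The neutrophil share was 32.3% for Nfkbiz, 25.8% for Tnfaip3, 24.9% for Birc3 and 18.8% for Sod2. The subunits Nfkb2 and Relb had 13.3% and 12.9%, and the neutrophil share of Nfkb1, 7.16%, was close to their share of all UMIs. In cells thinned to 1000 UMIs each, Tnf was seen in 41.1% of neutrophils, 16.1% of macrophages, 14.0% of monocytes and 9.76% of dendritic cells, against 3.79% of T cells (95% exact binomial interval 2.55 to 5.40%), 4.29% of cancer cells (1.59 to 9.09%) and 2.27% of NK cells. Such intervals cover counting error only. Without thinning the shares were 54.3% of neutrophils, 57.8% of macrophages, 18.9% of T cells and 33.6% of cancer cells, whose cells held far more UMIs. At 1000 UMIs the intervals of T cells and cancer cells overlapped. At 500 UMIs the shares were 1.83% of T cells (1.00 to 3.04%) and 0 of 140 cancer cells, which allows up to 2.60% by the same interval, and at 2000 UMIs they were 8.08% of T cells and 3.57% of cancer cells.

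**Figure D2:**
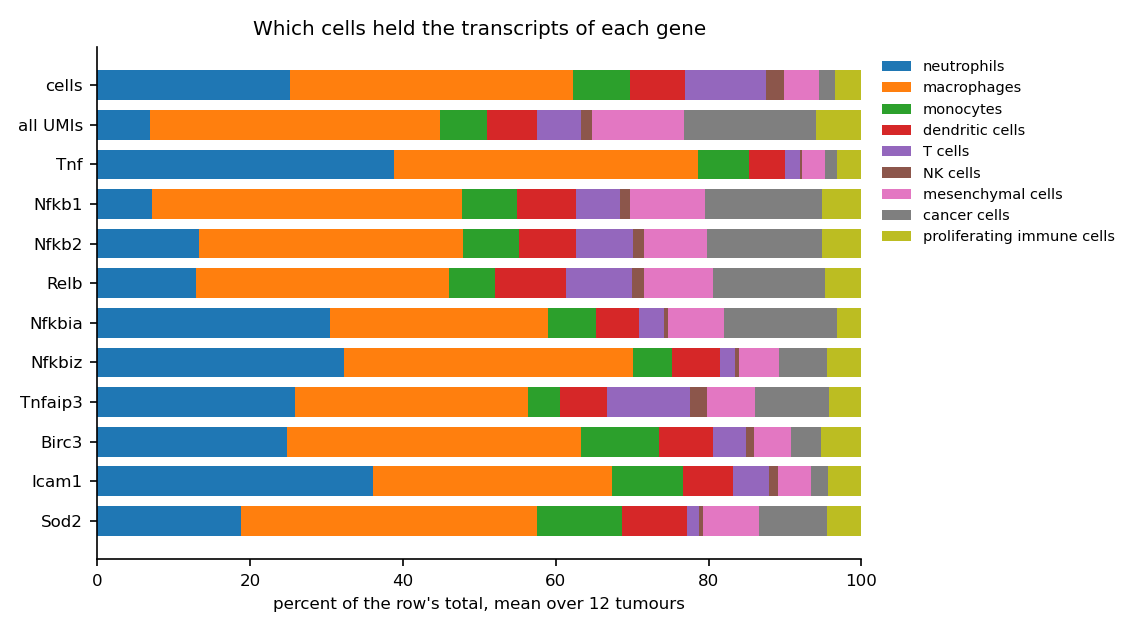
Percent of cells, of all UMIs and of each gene's UMIs held by each group of classes, as means over 12 tumours. Neutrophils take 6.86% of all UMIs and 38.8% of Tnf UMIs, but 7.16% of Nfkb1 UMIs. Macrophages take 38.1% of all UMIs and 39.9% of Tnf UMIs.

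Part of the Tnf seen outside neutrophils lay in cells that also carried neutrophil transcripts. Cells with at least 10 UMIs of 8 neutrophil markers (S100a8, S100a9, Cxcr2, Csf3r, Retnlg, G0s2, Mmp9 and Ly6g) were 12 of 559 CD8 T cells and held 120 of their 257 Tnf UMIs (46.7%). They were 3 of 132 NK cells with 15 of 26 Tnf UMIs (57.7%), 24 of 140 cancer cells with 123 of 220 (55.9%) and 78 of 241 mesenchymal cells with 172 of 335 (51.3%). In the macrophage classes such cells held 3.56 to 8.10% of Tnf UMIs. A deep cell reaches 10 marker UMIs more easily than a shallow one, and no doublet caller was run.

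Levels across the 18 classes were compared among the genes by rank, with class means as points. Classes shared tumours and libraries but not the same set of them, with 1 to 12 tumours per class. Those of Ifit+ neutrophils and CD4 T cells all had blockade, so the ranks also hold differences of treatment and library. Tnf ran with Nfkbiz (Spearman's rho 0.944) and Sod2 (0.915), Birc3 with Icam1 (0.870) and Nfkb2 with Relb (0.804), whereas Nfkb1 ran with Tnf at 0.174. Over all genes with at least 50 CPM in a class, the pattern of Tnf was most like those of Rnf149 (0.953), Arg2 (0.948) and Il1a (0.948), and that of Nfkbiz most like those of Klf6 (0.975), Ets2 (0.963) and Wsb1 (0.951). Sod2 was most like Slc7a11 (0.984), Prdx5 (0.977) and Rab32 (0.975). Nfkbia was most like Il1rap (0.882), Gsr and Sra1, and Tnfaip3 most like Pag1 (0.930), Dop1b and Plcxd2. Birc3 was most like Sema4d (0.951), Fas and Rab11fip1, and Icam1 most like Mxd1 (0.895), Stx11 and Fas. Nfkb1 had the loosest matches, Fam129a (0.783), Ptpn1 and the subunit gene Rel (0.717). Nfkb2 was most like Srsf5 (0.928), and Relb most like 4833438C02Rik (0.924), Ing3 and Ccdc174.

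Between blockade and standard diet, which also differ in library, the genes that moved were higher in ICB tumours, and most of the calls fell in Hilpda+ neutrophils. UMIs were summed per tumour and class and tested by quasi-likelihood in edgeR, with p-values adjusted over all genes of a fit and called under 0.05. Of 118 tests of the 10 genes in 12 classes, 10 were called, all higher in ICB tumours; 2.44% of all gene tests in these fits were called, 1.03% as higher. No label pairs ICB and SD tumours by their replicate number. With that number as a block 15 of the tests were called, 14 as higher, beside 3.05% of all gene tests. Among those added was Sod2 in other macrophages (0.75 ± 0.22, adjusted p = 0.0392, with 0.0827 without the block). The labels name different tumours but no mice, so p-values measure the spread between these tumours.

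In Hilpda+ neutrophils 6 of the 10 genes rose, where 6.02% of 2227 tested genes were called. Tnfaip3 had 1466, 1581 and 1510 CPM in ICB tumours against 427, 754 and 916 CPM in SD tumours. The groups did not overlap, and the log2 fold change was 1.14 ± 0.23 (SE, adjusted p = 0.00436). Nfkbiz had 2009, 2449 and 2300 CPM in ICB tumours against 654, 1414 and 1267 CPM in SD tumours (log2 fold change 1.07 ± 0.22, adjusted p = 0.00594). Tnfaip3 and Nfkbiz were thus higher in every ICB tumour than in any SD tumour. Nfkb1 had 362, 321 and 271 CPM in ICB tumours against 138, 178 and 107 CPM in SD tumours (1.26 ± 0.26, adjusted p = 0.00594). Nfkbia had 8967, 10348 and 9031 CPM in ICB tumours against 4675, 7175 and 7258 CPM in SD tumours (0.63 ± 0.19, adjusted p = 0.0455). For the subunit and for IκBα, too, the ranges lay apart. The share of all genes with ranges apart is not reported here, for this class or for the fits below. Sod2 had 1317, 1160 and 1179 CPM in ICB tumours against 515, 922 and 768 CPM in SD tumours (0.77 ± 0.21, adjusted p = 0.0299). Icam1 had 494, 580 and 501 CPM in ICB tumours against 88.0, 304 and 356 CPM in SD tumours (1.04 ± 0.29, adjusted p = 0.0397). SD tumour 1 was the lowest for 5 of the 6 genes and Nfkb1 was lowest in SD tumour 3. Tnf itself had 1103, 1656 and 1444 CPM in ICB tumours against 189, 985 and 712 CPM in SD tumours and did not pass (1.20 ± 0.44, adjusted p = 0.171). With the replicate block it did (1.32 ± 0.23, adjusted p = 2.44e-06), as did Nfkb2 (1.02 ± 0.33, adjusted p = 0.0260, with 0.0945 without the block). The median log2 fold change of the 10 genes was 1.00, beside 0.06 for all genes tested in this class.

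**Figure D3:**
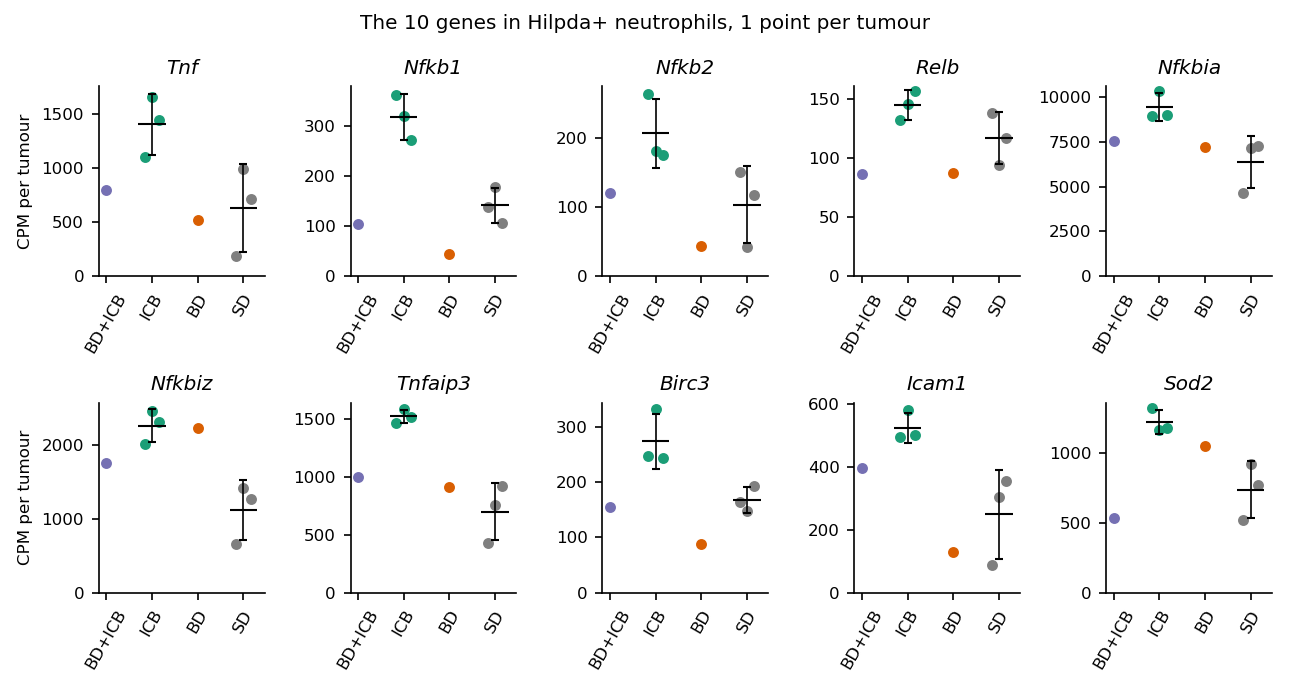
CPM of each gene in Hilpda+ neutrophils, with 1 point per tumour, groups BD+ICB, ICB, BD and SD from left to right, and mean and SD as bars where a group has more than 1 tumour of at least 10 cells. All 3 ICB tumours lie above all 3 SD tumours for the 6 called genes, such as Tnfaip3 with 1466 to 1581 CPM in ICB tumours against 427 to 916 CPM in SD tumours. They do so as well for genes not called, such as Tnf. The share of all tested genes with ranges apart is not reported here.

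Other genes of the pathway moved with them in this class. Of 125 further ligands, receptors, adaptors, subunits, inhibitors and targets, 70 could be tested, 22 were higher in ICB tumours and none was lower. Targets made up 16 of the 22. The smallest adjusted p-values were those of Cflar, an inhibitor of death receptor signalling (652.9 CPM in ICB tumours against 279.3 CPM in SD tumours, 1.28 ± 0.22, adjusted p = 0.00159), the neutrophil chemokine Cxcl3 (1.17 ± 0.20, adjusted p = 0.00159), the interferon-induced chemokine Cxcl10 (2.21 ± 0.40, adjusted p = 0.00267) and the cytokine Il1a (1.41 ± 0.25, adjusted p = 0.00267). Beside these, the 8 neutrophil markers summed to 36330 to 49320 CPM in ICB tumours against 64200 to 75380 CPM in SD tumours. The summed level of 28 genes known to respond to tissue dissociation overlapped, at 24040 to 28360 CPM in ICB tumours against 25180 to 26920 CPM in SD tumours. Median UMIs per cell were 2746 to 3357 in ICB tumours against 1981 to 2066 in SD tumours. The part of markers and depth in the result was not tested.

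Tnfaip3 kept its call in Hilpda+ neutrophils under every alternative tried except a minimum of 30 cells per tumour (adjusted p = 0.0862), which left 2 ICB and 2 SD tumours and ended all 6 calls. Under a stricter rule for assigning hashtags Tnfaip3 alone of the 6 remained called, and Nfkbiz had an adjusted p of 0.0582. With DESeq2 Tnfaip3 and Nfkbiz remained called, and the other 4 had adjusted p-values between 0.0533 and 0.0736. Nfkb1 was not called without SD tumour 3 (adjusted p = 0.0936). Sod2 was not called without any 1 of the 3 ICB tumours, SD tumour 1 or SD tumour 3 (up to 0.142), and Icam1 not without any 1 of the 3 ICB tumours, SD tumour 1 or SD tumour 2 (up to 0.157). Nfkbia was called in 2 of 15 alternatives: it was also not called in cells with at least 1000 UMIs (0.0543), with RLE size factors (0.0610), or without any 1 of the ICB or SD tumours, BD tumour 2 or BD+ICB tumour 3 (0.0571 to 0.238), and its adjusted p reached 0.381 with at least 30 cells per tumour.

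In Cxcr2+ neutrophils all 10 genes had positive estimates, with a median of 0.60 beside 0.02 for all genes, but none was called by edgeR, where 1.76% of genes were. Tnfaip3 averaged 1009 ± 354 CPM in ICB tumours and 616 ± 118 CPM in SD tumours (SD, n = 3 each, 0.76 ± 0.24, adjusted p = 0.0835), and Birc3 was similar (0.83 ± 0.26, adjusted p = 0.0895). Of the pathway genes 3 of 81 rose: Gbp2, an interferon-induced GTPase (2.88 ± 0.32, adjusted p = 1.59e-06), Cxcl10 (2.75 ± 0.44, adjusted p = 0.00198) and Il1a (1.62 ± 0.37, adjusted p = 0.0221). With all neutrophils summed, Tnfaip3 had 1188, 1371 and 1452 CPM in ICB tumours against 517, 730 and 761 CPM in SD tumours (1.03 ± 0.22, adjusted p = 0.00378), and it stayed called in all 19 alternatives. Nfkbiz (1601, 2069 and 2020 CPM in ICB tumours against 805, 1291 and 1251 CPM in SD tumours) and Nfkb1 (369, 337 and 346 CPM in ICB tumours against 186, 169 and 256 CPM in SD tumours) rose too. Nfkbiz lost its call without ICB tumour 2, SD tumour 1, SD tumour 2 or SD tumour 3 (adjusted p up to 0.180), and Nfkb1 without any of these or ICB tumour 1 (up to 0.211). Both were also lost under the stricter hashtag rule (adjusted p = 0.0837 for Nfkbiz and 0.112 for Nfkb1). Tnf in summed neutrophils passed with the replicate block (0.97 ± 0.22, adjusted p = 0.00522) and not without it (0.92 ± 0.39, adjusted p = 0.185). Hilpda+ neutrophils were 324 of 794 and Ifit+ neutrophils 74 of 794 neutrophils of ICB tumours, against 145 and 16 of 440 in SD tumours, and the part of this makeup was not tested.

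In proliferating cancer cells the inhibitor genes Tnfaip3 and Nfkbia rose, and Tnfaip3 had the smallest adjusted p of the 118 class tests. Tnfaip3 had 208, 192 and 192 CPM in ICB tumours against 58.2 and 81.9 CPM in the 2 SD tumours with enough cells (log2 fold change 1.45 ± 0.16, adjusted p = 3.43e-04), and it was called in all 13 alternatives that could be fitted. Nfkbia had 1484, 1477 and 1236 CPM in ICB tumours against 680 and 931 CPM in SD tumours (0.75 ± 0.13, adjusted p = 0.0275), with an adjusted p of 0.0671 with the replicate number as a block, of 0.294 without SD tumour 1, of 0.0723 without ICB tumour 1, of 0.0874 without ICB tumour 2 and of 0.198 under the stricter hashtag rule. Tnf fell in this class with the block only (-2.96 ± 0.44, adjusted p = 0.00720, with 0.777 without it), where cells with 10 or more neutrophil marker UMIs held 62 of 104 Tnf UMIs in ICB tumours against 50 of 75 in SD tumours. In this class 0.551% of 9613 genes were called. Of 101 pathway genes tested, the transcription factor gene Irf1 (1.57 ± 0.15, adjusted p = 1.56e-04) and Zfp36, whose product destabilises cytokine mRNAs (1.00 ± 0.15, adjusted p = 0.00871), rose and Marcks fell (-0.66 ± 0.14, adjusted p = 0.0492). Neutrophil markers summed to 59.7 to 719 CPM in ICB tumours against 988 to 2082 CPM in SD tumours. The dissociation genes summed to 15010 to 18160 CPM in ICB tumours against 12610 to 13180 CPM in SD tumours, and median UMIs per cell were 120545 to 121658 in ICB tumours against 68233.5 and 70511 in the SD tumours used. The part of markers, dissociation genes and depth in the result was not tested.

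In Trem2+ M2 macrophages Tnfaip3 had 324, 373 and 294 CPM in ICB tumours against 166, 176 and 124 CPM in SD tumours (1.08 ± 0.29, adjusted p = 0.0327). Icam1 had 98.1, 137 and 131 CPM in ICB tumours against 67.3, 69.9 and 51.4 CPM in SD tumours (0.88 ± 0.25, adjusted p = 0.0338). The groups lay apart for both genes, but both calls were lost in cells with under 10 neutrophil marker UMIs (adjusted p = 0.147 for Tnfaip3 and 0.0505 for Icam1) and without BD tumour 3, ICB tumour 1, ICB tumour 2 or any 1 SD tumour (up to 0.179 and 0.192). Icam1 was also lost without ICB tumour 3 (0.0646). With no filter on low counts Icam1 had an adjusted p of 0.0644. Under the stricter hashtag rule the adjusted p-values were 0.0502 and 0.0960, and in cells without a neutrophil marker UMI 0.0738 and 0.527. In this class 5.72% of genes were called. Of 84 pathway genes 5 rose, led by the hyaluronan receptor Cd44 and the immediate-early genes Junb and Zfp36, which are also among the dissociation genes. Those summed to 13870 to 17600 CPM in ICB tumours against 10110 to 14140 CPM in SD tumours, and their part was not tested.

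With classes summed into cell types, 9 of 88 tests were called, all higher in ICB tumours and including those of neutrophils and cancer cells above, beside 2.58% of all gene tests. With the replicate block 14 were called, 13 as higher, beside 3.1% of all gene tests. The block ended the calls of Nfkbia in cancer cells and of Nfkb1 in monocytes. Beyond the Tnf values above it added Nfkbia (0.47 ± 0.12) and Tnfaip3 (1.23 ± 0.26) in mesenchymal cells (adjusted p = 0.0381 for both), Nfkb1 in T cells (0.93 ± 0.26, adjusted p = 0.0292), and Icam1 (1.70 ± 0.44, adjusted p = 0.0259) and Tnf (2.04 ± 0.50, adjusted p = 0.0190) in dendritic cells. Macrophages had 287, 244 and 212 CPM of Tnfaip3 in ICB tumours against 149, 173 and 131 CPM in SD tumours (0.67 ± 0.17, adjusted p = 0.0260). Nfkb1 had 408, 342 and 296 CPM in ICB macrophages against 246, 196 and 198 CPM in SD macrophages, a log2 fold change of 0.66 ± 0.17 (adjusted p = 0.0293). Both calls were lost without ICB tumour 1, ICB tumour 2 or SD tumour 3, Tnfaip3 also without SD tumour 1 and Nfkb1 also without SD tumour 2 (adjusted p up to 0.141 and 0.131). M1 macrophages were 149 of 680 macrophages in ICB tumours against 31 of 387 in SD tumours, and Trem2+ M2 macrophages 288 of 680 against 255 of 387. The part of this makeup was not tested. Within single classes Tnfaip3 was called in Trem2+ M2 macrophages and Nfkb1 in none, with the smallest adjusted p in M1 macrophages (0.90 ± 0.19, adjusted p = 0.0711). In dendritic cells Nfkbiz had 310, 376 and 277 CPM in ICB tumours against 129 and 64.6 CPM in SD tumours (1.54 ± 0.32, adjusted p = 0.0122, with 0.274 without SD tumour 3, 0.0895 in cells with under 10 neutrophil marker UMIs and 0.168 in cells with none). Nos2+ dendritic cells, with 514 ± 51.1 CPM of Nfkbiz in ICB tumours (SD, n = 2), were 62 of 112 dendritic cells in ICB tumours against 9 of 39 in SD tumours. In the other dendritic cells, the 1 dendritic class tested, Nfkbiz was not called (0.51 ± 0.40, adjusted p = 0.791), and the part of the makeup in the summed result was not tested. In monocytes Nfkb1 had 296, 402 and 415 CPM in ICB tumours against 108 and 218 CPM in SD tumours (1.32 ± 0.29, adjusted p = 0.0469, with 0.114 with the replicate block and 0.362 without SD tumour 1). That call was also lost with RLE size factors (0.0626) and without ICB tumour 2, ICB tumour 3 or any 1 BD+ICB tumour (up to 0.179). In whole tumours Tnfaip3 had 302, 398 and 419 CPM in ICB tumours against 141, 222 and 188 CPM in SD tumours (0.97 ± 0.19, adjusted p = 0.0236). Nfkb1 had 315, 317 and 338 CPM in ICB tumours against 214, 166 and 191 CPM in SD tumours (0.71 ± 0.17, adjusted p = 0.0410). Nfkb2 had 103, 95.8 and 101 CPM in ICB tumours against 76.7, 67.1 and 75.1 CPM in SD tumours (0.39 ± 0.09, adjusted p = 0.0426). The groups lay apart for all 3 genes, and 2.89% of 11988 genes were called. Tnfaip3 lost its call without ICB tumour 2, ICB tumour 3, SD tumour 1 or SD tumour 3 (up to 0.0923). Nfkb1 and Nfkb2 lost theirs without any 1 tumour other than BD tumour 1 and BD tumour 2 (up to 0.164 and 0.170), and Nfkb2 also with no filter on low counts (0.0829) and under the stricter hashtag rule (0.0571). In such whole-tumour sums, fewer cells of a type and less RNA per cell cannot be told apart. Neutrophils were 35.3 ± 19.6% of cells in ICB tumours and 36.0 ± 9.07% in SD tumours, and mesenchymal cells 3.20 ± 1.37% in ICB tumours and 12.2 ± 1.64% in SD tumours (SD, n = 3 each).

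**Figure D4:**
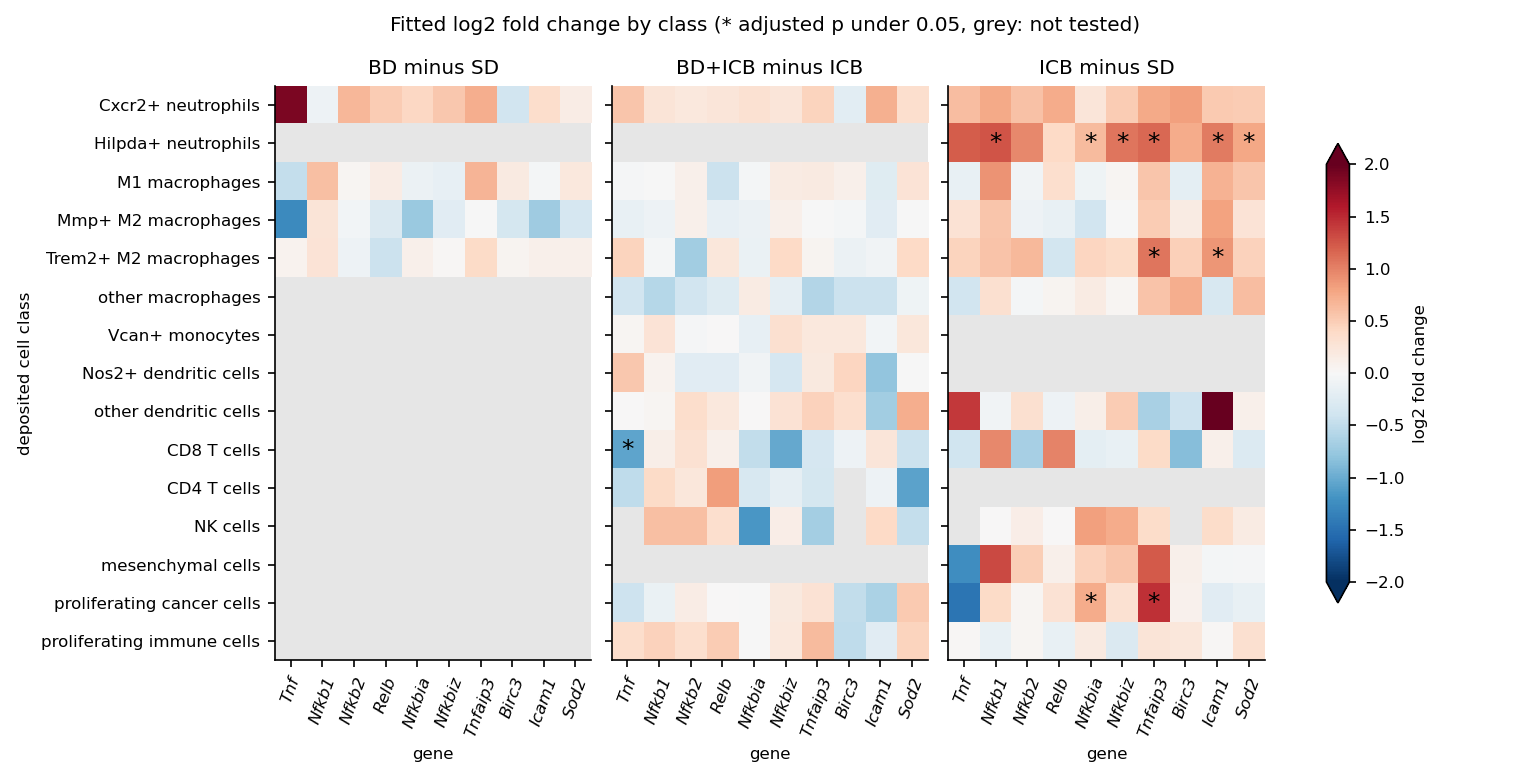
Fitted log2 fold change of each gene (columns) in each class (rows) for BD minus SD, BD+ICB minus ICB and ICB minus SD, with red for higher and blue for lower in the first-named group, an asterisk for an adjusted p under 0.05 and grey for classes not tested. The asterisks number 0, 1 and 10 in the 3 panels, and those of ICB minus SD are all red.

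The butanediol diet alone gave no call among the 10 genes within cell classes. In the 4 classes with enough tumours, 0 of 40 tests passed edgeR's test when BD was set against SD, 6 were under an unadjusted p of 0.05, DESeq2 called 1, and 0.0309% of all gene tests were called. The smallest adjusted p was 0.284, that of Nfkbia in Mmp+ M2 macrophages (-0.75 ± 0.20). Tnf differed most in size and went opposite ways in 2 classes. In Cxcr2+ neutrophils it had 4465 and 2512 CPM in BD tumours against 511, 921 and 1188 CPM in SD tumours, ranges that lay apart with an adjusted p of 0.719 (1.88 ± 0.68), from 15 and 12 cells in the BD tumours. In Mmp+ M2 macrophages it had 263, 184 and 78.8 CPM in BD tumours against 414, 525 and 250 CPM in SD tumours (-1.27 ± 0.51, adjusted p = 0.539). With all neutrophils summed, Nfkbiz averaged 2036 ± 229.5 CPM in BD tumours and 1115 ± 270.0 CPM in SD tumours (SD, n = 3 each), with no overlap, and did not pass (0.82 ± 0.24, adjusted p = 0.645). Tnfaip3 likewise averaged 1124 ± 95.2 CPM in BD tumours and 669 ± 133 CPM in SD tumours (0.71 ± 0.24, adjusted p = 0.814). None of the 20 tests in summed neutrophils and macrophages was called by edgeR, 3 were under an unadjusted p of 0.05, and 0 of all gene tests were called. Of the pathway genes, Ptgs2, which encodes cyclooxygenase-2, rose in M1 macrophages, with a mean of 1047 CPM in BD tumours against 209.8 CPM in SD tumours (2.26 ± 0.31, adjusted p = 0.0138). Each group had 2 tumours there, with 45 and 14 cells in BD tumours and 16 and 11 in SD tumours. Its values with a tumour left out are not reported here.

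In whole tumours 21.3% of all genes differed between BD and SD and none of the 10 did; DESeq2 called 1 and 3 were under an unadjusted p of 0.05. The nearest were Nfkb2 (0.30 ± 0.10, adjusted p = 0.0561) and Nfkb1 (0.47 ± 0.17, adjusted p = 0.0636). Of 120 pathway genes 37 rose and 1 fell, beside 11.1% of all genes called higher. They were led by the kinase gene Ikbkb (91.95 CPM in BD tumours against 43.1 CPM in SD tumours, 1.24 ± 0.14, adjusted p = 4.94e-04), the receptor gene Tlr2 (0.91 ± 0.13, adjusted p = 0.00113), Pde4b (0.91 ± 0.13) and Rel (0.94 ± 0.14). Macrophages were 56.9 ± 8.46% of cells in BD tumours and 31.4 ± 3.48% in SD tumours (SD, n = 3 each), and their part was not tested. Averaged over both libraries, Nfkb1 was higher on the butanediol diet by 0.36 ± 0.12 (log2, adjusted p = 0.0365) and Nfkb2 by 0.22 ± 0.07 (adjusted p = 0.0312) in whole tumours, where 30.6% of genes were called. Nfkb1 had 364, 345 and 347 CPM in BD+ICB tumours against 315, 317 and 338 CPM in ICB tumours, and 306, 151 and 249 CPM in BD tumours against 214, 166 and 191 CPM in SD tumours. The groups lay apart in the library with blockade and overlapped in the other. Both calls were lost without any 1 of 9 tumours, all but BD tumour 2, SD tumour 1 and ICB tumour 3 (without BD tumour 3, adjusted p = 0.0865 and 0.0737), and with no filter on low counts (0.0651 for Nfkb1 and 0.132 for Nfkb2). No class test of the average passed, with 0.0309% of all gene tests called and 6 of 40 under an unadjusted p of 0.05. In none of the 10 genes was a difference of the diet effect between the libraries called by edgeR, with a smallest adjusted p of 0.326 in whole tumours (Tnfaip3, -0.68 ± 0.27), 2 class tests of 40 under an unadjusted p of 0.05, and 0.00515% of all class tests called.

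With the blockade given to both, 1 gene differed by diet in 1 class: of 127 tests in 13 classes, Tnf in CD8 T cells passed, 14 were under an unadjusted p of 0.05, and 0.307% of all gene tests were called. Tnf had 49.0, 47.7 and 38.4 CPM in CD8 T cells of BD+ICB tumours against 94.2, 89.9 and 108.9 CPM in those of ICB tumours (log2 fold change -1.06 ± 0.24, adjusted p = 0.0276, over alternatives 0.00769 to 0.574). In this class 0.874% of genes were called, 0.781% as lower. The groups lay apart, but the call was lost when any 1 of the 6 tumours was left out (adjusted p between 0.0533 and 0.162). Its direction depended on a few cells. Neutrophil markers summed to 30.4, 44.5 and 25.6 CPM in CD8 T cells of BD+ICB tumours against 424, 1859 and 961 CPM in those of ICB tumours. None of 303 CD8 T cells of BD+ICB tumours had 10 or more neutrophil marker UMIs, whereas 10 of 215 of ICB tumours did, and those 10 cells held 108 of the 140 Tnf UMIs (77.1%).

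Without them Tnf had 49.0, 47.7 and 38.4 CPM in BD+ICB tumours (45.0 ± 5.79) against 29.4, 12.1 and 20.8 CPM in ICB tumours (20.8 ± 8.62, SD, n = 3 each). The sign turned round, to a log2 fold change of 0.99 ± 0.31, and did not pass (adjusted p = 0.415). The stricter hashtag rule gave 0.82 ± 0.32 (adjusted p = 0.547), and cells with no neutrophil marker UMI gave 1.00 ± 0.36 (adjusted p = 0.574). These alternatives on markers were chosen after the values were seen. Other genes were called in the fit on all CD8 T cells, which includes the cells with neutrophil markers. There 6 of 83 pathway genes were lower in BD+ICB tumours and none was higher. They were led by Clec4e, a receptor of myeloid cells (9.20 CPM in BD+ICB tumours against 126.3 CPM in ICB tumours), Il1a, Ccrl2 and Marcks. Among dissociation genes Klf2 fell in the same fit (-1.34 ± 0.28, adjusted p = 0.0248). Values of these genes without the marker-bearing cells are not reported here. In CD4 T cells, again with all cells kept and with 0.91% of 2308 genes called, 52 pathway genes were tested. Of these, Ier3, Ccl3 and Tnfaip2 fell and Tnfsf11, which encodes the cytokine RANKL, rose (0.97 ± 0.23, adjusted p = 0.0477).

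**Figure D5:**
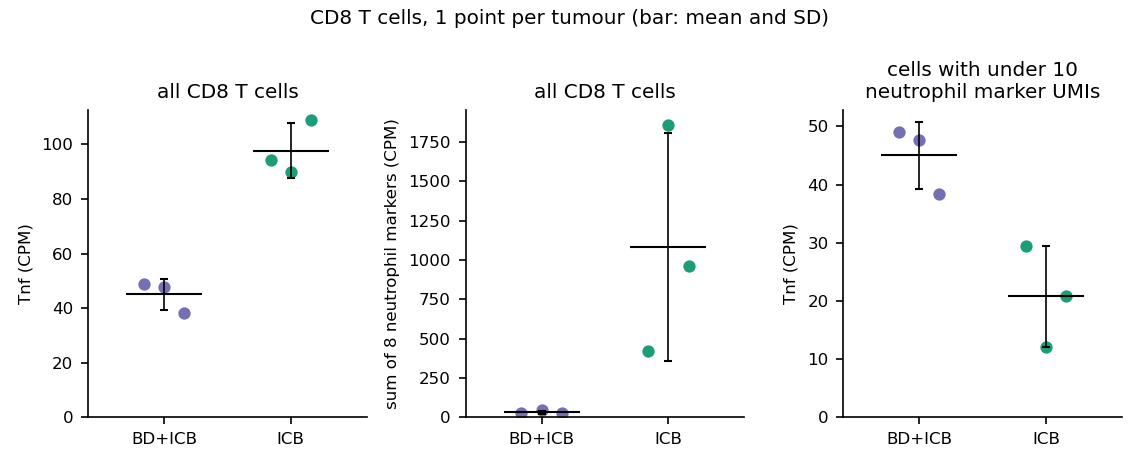
CD8 T cells of BD+ICB and ICB tumours with 1 point per tumour and mean and SD as bars: Tnf in all cells, the summed neutrophil markers in all cells, and Tnf in cells with under 10 neutrophil marker UMIs, all in CPM. Tnf is 38.4 to 49.0 CPM in BD+ICB tumours against 89.9 to 108.9 CPM in ICB tumours in the left panel, and 12.1 to 29.4 CPM in ICB tumours in the right one.

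Elsewhere the 10 genes did not pass when BD+ICB was set against ICB. With classes summed, 0 of 78 tests were called by edgeR, 12 were under an unadjusted p of 0.05, and 0.413% of all gene tests were called. The nearest was Sod2 in cancer cells, with a mean of 205 CPM in BD+ICB tumours against 152.5 CPM in ICB tumours (0.52 ± 0.12, adjusted p = 0.0546). Of 101 pathway genes tested in cancer cells 4 rose and 1 fell, where 1.06% of 9613 genes were called. Cancer cells had higher Cd44 (506.0 CPM in BD+ICB tumours against 350.2 CPM in ICB tumours, 0.62 ± 0.10, adjusted p = 0.0115), Plaur, Nfkbib and Irf1, and lower Birc2, which encodes the ubiquitin ligase cIAP1 (8.51 CPM in BD+ICB tumours against 24.3 CPM in ICB tumours, -1.48 ± 0.33, adjusted p = 0.0460). Of 85 pathway genes tested in summed neutrophils 3 rose and none fell, namely Bcl2a1b, a survival gene of the BCL2 family (1.30 ± 0.24, adjusted p = 0.00365), Plaur and the chemokine gene Ccl4. The share of all genes called in this 1 fit is not reported here, so the 3 cannot be set against it. In whole tumours 0 of 10 passed, none was under an unadjusted p of 0.05, and 6.48% of all genes were called. Nfkbia had the smallest adjusted p, 0.321 (-0.59 ± 0.33), and neutrophils were 9.29 ± 9.35% of cells in BD+ICB tumours and 35.3 ± 19.6% in ICB tumours.

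The last comparison added the blockade to the diet, which again changed the library. In BD+ICB against BD tumours 34 of 40 class estimates were positive, but none was called by edgeR. Of the pathway estimates in these fits 236 of 352 were positive, and of those of dissociation genes 68 of 105. The share of positive estimates over all genes is not reported here. Of the 40 tests 12 were under an unadjusted p of 0.05, DESeq2 called 1, and 2.29% of all gene tests were called. With classes summed, 3 of 20 tests were called, beside 4.45% of all gene tests. In summed macrophages, where 4.47% of genes were called, Icam1 had 91.9, 89.2 and 102 CPM in BD+ICB tumours against 57.0, 40.3 and 59.8 CPM in BD tumours (0.82 ± 0.20, adjusted p = 0.0209). Sod2 had 469, 669 and 432 CPM in BD+ICB macrophages against 379, 202 and 249 CPM in BD macrophages (0.92 ± 0.22, adjusted p = 0.0246). Neither gene overlapped between groups, and both calls were lost without BD tumour 2, BD tumour 3 or BD+ICB tumour 2 (up to 0.0763 for Icam1 and 0.144 for Sod2), that of Icam1 also without BD+ICB tumour 1 or BD+ICB tumour 3. The 10 macrophage markers summed to 6179 to 13760 CPM in BD+ICB macrophages against 13660 to 29350 CPM in BD macrophages, and their part was not tested. M1 macrophages, with the highest Sod2 of the macrophage classes (607 ± 111 CPM in BD+ICB tumours, n = 3, and 400 ± 63.9 CPM in BD tumours, n = 2), were 295 of 529 macrophages in BD+ICB tumours against 60 of 293 in BD tumours. Neither gene was called in M1, Mmp+ M2 or Trem2+ M2 macrophages (adjusted p from 0.101 to 0.493), and the part of this makeup was not tested. In summed neutrophils Nfkb1 had 389, 344 and 438 CPM in BD+ICB tumours against 231, 122 and 224 CPM in BD tumours (1.26 ± 0.35, adjusted p = 0.0262, with 0.253 without BD tumour 2 and 0.0902 without BD+ICB tumour 3). Whole tumours gave 0 of 10, with 2 under an unadjusted p of 0.05 and 8.8% of all genes called. The comparisons share groups of tumours (ICB, SD, BD or BD+ICB), so they are given side by side and not as support for each other.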

How the data were processed

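The deposited expression table held UMI counts per gene and cell, from the authors' run of Cell Ranger (version 6.1.1, per the file headers) against mm10, per the submitters' processing notes. Their deposited table of cells gave class, tumour and percent of mitochondrial UMIs. That percent set no filter here. The authors' hashtag counts served the stricter hashtag rule, which kept 5325 cells whose leading tag had 10 counts or more and was 3-fold above the runner-up. No doublet caller was run.

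Counts were summed per tumour and class, group of classes or whole tumour (at least 10 cells) and fitted with edgeR 4.0.16 (TMM, filterByExpr, robust quasi-likelihood, 4 groups in a fit), with Benjamini-Hochberg adjustment over all genes of a fit. The fits were tested on simulated data. SE is the log2 fold change over the root of F. No label pairs tumours by number. ICB and SD tumours with the same number deviated together (correlations 0.148 to 0.289 in 3 of 3 pairs). Listed tumour size also fell with the number in both groups. Block values are given for ICB minus SD where they change a call, and they rest on a pairing chosen from these data. For the other contrasts only the number of calls with the block is given.

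The 10 genes and all lists were chosen with earlier results of these data known. Classes and clusters are the authors'. Named pathway genes are up to 4 per fit by adjusted p, dissociation genes up to 2, and the 3 most alike per gene (1 for Nfkb2, the others not reported here). Alternatives were DESeq2 1.42.0, RLE size factors, no filter, at least 30 cells, cells with 1000 UMIs, the hashtag rule, the replicate block, 1 library alone, each tumour left out, and 2 rules on neutrophil marker UMIs added after the data were seen.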

Additional observations from a re-analysis of the deposited data

How the results depend on the processing

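Counts of called genes among the 10 moved as follows. The share of all gene tests called moved with the setting too. For ICB minus SD the replicate block took it from 2.44 to 3.05% by class and from 2.58 to 3.1% with classes summed. In whole tumours it went from 2.89 to 4.08%. Shares under the other settings are not reported here. The counts, those of the lists below included, therefore do not show a change particular to these genes. By class, ICB minus SD gave 10 calls, against 0 with at least 30 cells, 6 in cells without a neutrophil marker UMI, 4 under the stricter hashtag rule, and 5 to 11 with a tumour left out. BD+ICB minus ICB gave 1, against 0 in cells with under 10 or with no neutrophil marker UMIs and under the hashtag rule, 3 with no filter, and 0 to 2 with a tumour left out. BD minus SD gave 0, against 1 with DESeq2, and 0 with any tumour left out. The diet average gave 0, against 1 with the replicate block. BD+ICB minus BD gave 0, against 1 with DESeq2, 3 with no filter, and 0 to 1 with a tumour left out.

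With classes summed, ICB minus SD gave 9, against 14 with DESeq2, 21 with no filter, 14 with the replicate block, and 4 to 11 with a tumour left out. BD+ICB minus ICB gave 0, against 1 with at least 30 cells, 4 with no filter, 1 in its library alone, 2 with the block, 2 under the hashtag rule, and 0 to 2 with a tumour left out. BD minus SD and the diet average gave 0, against 1 each with the block. BD+ICB minus BD gave 3, against 6 with no filter and 0 to 4 with a tumour left out.

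In whole tumours BD minus SD gave 0, against 1 with DESeq2, 2 with the block, 2 under the hashtag rule, and 0 to 2 with a tumour left out. The diet average gave 2, against 0 with no filter and 0 to 3 with a tumour left out, and ICB minus SD 3, against 0 to 3. BD+ICB minus BD gave 0, against 1 with the block and 0 to 1 with a tumour left out.

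Calls in the pathway list for ICB minus SD were 55 by class, against 14 with at least 30 cells, 30 with no neutrophil marker UMI, 108 with no filter, 31 under the hashtag rule, and 37 to 62 with a tumour left out. For BD+ICB minus ICB they were 17, against 10 with at least 30 cells, 10 and 4 under the marker rules (under 10 and none), 75 with no filter, 43 with the block, 8 under the hashtag rule, and 8 to 27 with a tumour left out. Dissociation calls for ICB minus SD were 13, against 0, 8 and 2, 30, 24 and 8 under the same settings in the same order, and 4 to 20.

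Tnf in CD8 T cells (-1.06) turned to 0.99, 0.995 and 0.82 under the marker rules (under 10 and none) and the hashtag rule, and kept its sign with any 1 tumour left out. The share of cells with Tnf at 500 UMIs, 2000 UMIs and without thinning was 28.9, 54.5 and 54.3% of neutrophils, 9.58, 26.4 and 57.8% of macrophages and 1.83, 8.08 and 18.9% of T cells, and 0% at 500 UMIs and 33.6% without thinning in cancer cells. Same-numbered tumours were not paired by the labels in any contrast, ICB minus SD included. In BD minus SD, BD+ICB minus ICB and BD+ICB minus BD they correlated at 0.0556 to 0.253, 0.0239 to 0.271 and -0.131 to 0.0722. Where a value changed, the cause was not tested. Depth limits the classes with few cells: BD tumours gave 70 to 303 cells, and 4 classes could be tested for BD minus SD.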
